A study of Mus musculus with 9 samples.

Results

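The transcripts of the prolactin and growth hormone receptors and of the feedback inhibitors that act on them were followed in HC11 cells, a mouse mammary epithelial line of BALB/c origin. The 9 genes were taken by name from the table of RNA-seq counts: *Prlr*, *Ghr*, *Cish*, *Socs1*, *Socs2*, *Socs4*, *Socs5*, *Socs6* and *Socs7*. All 9 were found among the 55228 genes of the table, and all 9 were among the 15253 genes with enough counts to be tested. The remaining family member, *Socs3*, was not in the set and is given as a relative. The study compared parental HC11 cells (*WT*) with 2 lines, *KD1* and *KD2*, in which *Vangl2*, a planar cell polarity gene, had been targeted by CRISPR/Cas9 with different guides. GEO's labels call these lines knockouts. Each line is a clone grown from a single edited cell, and no control clone was analysed here, so that an effect of cloning cannot be told apart from one of editing. All 9 cultures, 3 per line, were undifferentiated and were harvested at or near confluence. They were grown in the same serum-containing medium with insulin and EGF. Neither prolactin nor dexamethasone was added to any of them.

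PRLR and GHR are class I cytokine receptors without a kinase of their own. On binding hormone they activate the kinase JAK2, which phosphorylates STAT5, and STAT5 then enters the nucleus and turns on its target genes, in the mammary epithelium those of alveolar growth and milk production. Among the targets are CISH and SOCS proteins, which carry an SH2 domain and a SOCS box and bind back to receptor or kinase to block signaling or to recruit a ubiquitin ligase. CISH, SOCS1, SOCS2 and SOCS3 are the cytokine-inducible members, while SOCS4 to SOCS7 are less tied to cytokine induction and have been linked to receptor tyrosine kinases and insulin signaling. HC11 cells are known for making milk protein in response to prolactin once differentiated.

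Depth ran from 19231428 to 28360592 counts per culture. Levels are given as CPM, which scales counts to library size after TMM adjustment, and changes as log2 fold changes with the standard error (SE) and a p-value from edgeR's quasi-likelihood test adjusted by the Benjamini-Hochberg method over all genes tested. A gene passed at an adjusted p under 0.05. The labels do not say that the 3 cultures of a line were grown separately, so the p-values measure the spread between these cultures, which may be technical. *KD2* replicate 3 stood apart from replicates 1 and 2, with a chi-square per degree of freedom of 19 and 24.5 over genes against 1.83 between those replicates. *WT* replicate 1 stood apart less, at 13.7 and 11.1 against 3.51, and the *KD1* cultures lay between 1.41 and 1.87 of each other. Counts of passing genes are given without each of these cultures. Single values without *KD2* replicate 3 are given for *Prlr*, *Ghr*, *Socs1*, *Socs2*, *Socs4* and *Socs6*. Those without *WT* replicate 1 are given for *Socs3* and *Socs5*. Counts of *Vangl2* itself were 66, 99 and 86 for *WT*, 75, 48 and 69 for *KD1*, and 90, 118 and 90 for *KD2*. The transcript was lower in *KD1* (log2 fold change -0.63, adjusted p = 0.0058 by edgeR) and did not pass in *KD2* (0.05, adjusted p = 0.81), where the count therefore does not check the label. The paper checked the protein by immunoblot and reported almost no VANGL2 in *KD1* and strongly reduced VANGL2 in *KD2*. Summed CPM of the 6 general epithelial markers was 4818 to 5389 in *WT*, 5464 to 5607 in *KD1* and 2873 to 3564 in *KD2*. The sum was carried by *Krt5* (mean 2117, 2159 and 1088 CPM) and *Krt14* (1527, 1405 and 819 CPM). *Epcam* (551, 681 and 428 CPM) and *Cdh1* (692, 896 and 428 CPM) were also lowest in *KD2*. *Krt8* (158, 177 and 268 CPM) and *Krt18* (125, 204 and 136 CPM) were not lower there than in *WT*. Markers of hormone-sensing luminal cells, the class that carries most PRLR in the gland, summed to 46.9 to 51.9, 9.32 to 10.6 and 28.7 to 31.9 CPM over 6 genes, a sum carried by *Ly6a* (mean 41.7, 1.03 and 24.5 CPM). Of these, *Esr1* was at 5.74, 4.86 and 4.66 CPM, *Pgr* had no count in any culture and *Foxa1* had 1 to 8 counts in *WT*, 76 to 83 in *KD1* and 2 to 5 in *KD2*. The 5 fibroblast markers summed to 10.4 to 12.8, 7.38 to 9.60 and 83.0 to 91.7 CPM. Most of the gain in *KD2* was *Pdgfrb* (mean 0.823, 0.142 and 66.8 CPM), and *Pdgfra* was higher there as well (7.96, 8.40 and 16.4 CPM). *Col3a1* was at 3.03, 0.0131 and 2.72 CPM. *Dcn* had at most 6 counts in any culture and *Lum* 3 or fewer. The 5 luminal progenitor or alveolar markers summed to 6.97 to 8.45, 12.4 to 13.2 and 20.3 to 23.7 CPM. Most of it was *Cd14* (mean 6.56, 11.1 and 19.9 CPM), and so was the rise of the sum in both edited lines. *Elf5* was at 0.236, 0.509 and 1.72 CPM and *Aldh1a3* at 0.337, 1.20 and 0.150 CPM. *Kit* (0.246, 0.0134 and 0 CPM) and *Csn3* (0.0934, 0 and 0.0111 CPM) were highest in *WT*. The part of cell state in the levels of the receptors and inhibitors was not tested. In bulk RNA, fewer cells expressing a transcript and less of it per cell cannot be told apart.

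The receptors and the inducible inhibitors *Cish* and *Socs1* held the genes of the set that rose, and the genes that fell were *Socs4* to *Socs7* and, in *KD2*, *Prlr*. In *KD1*, 4 of the 9 genes passed higher (*Prlr*, *Ghr*, *Cish* and *Socs1*), where 26.9% of all genes tested did so, and 2 passed lower (*Socs5* and *Socs7*), against 30.0% of all genes. The same 4 were more than 2-fold higher, against 9.34% of all genes, and 0 were more than 2-fold lower, against 7.49%. In *KD2*, 3 passed higher (*Ghr*, *Cish* and *Socs1*), against 34.0% of all genes, and 4 passed lower (*Prlr*, *Socs4*, *Socs6* and *Socs7*), against 33.3%. Here 0 were more than 2-fold higher, against 14.5%, and 1, *Socs4*, was more than 2-fold lower, against 6.71%. The median log2 fold change over the 9 genes was 0.13 in *KD1* and -0.07 in *KD2*, beside -0.03 and 0.01 for all genes tested. Without *KD2* replicate 3, 5 genes passed higher and 3 lower in *KD1*, because *Socs2* and *Socs4* were added, and 4 passed higher and 4 lower in *KD2*, with *Socs2* added. That analysis put *Ghr* over 2-fold higher and *Socs4* under 2-fold lower in *KD2*. Without *WT* replicate 1, 4 passed higher and 1 lower in *KD1*, where *Socs7* was lost, and 3 passed higher and 4 lower in *KD2*.

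**Figure D1:**
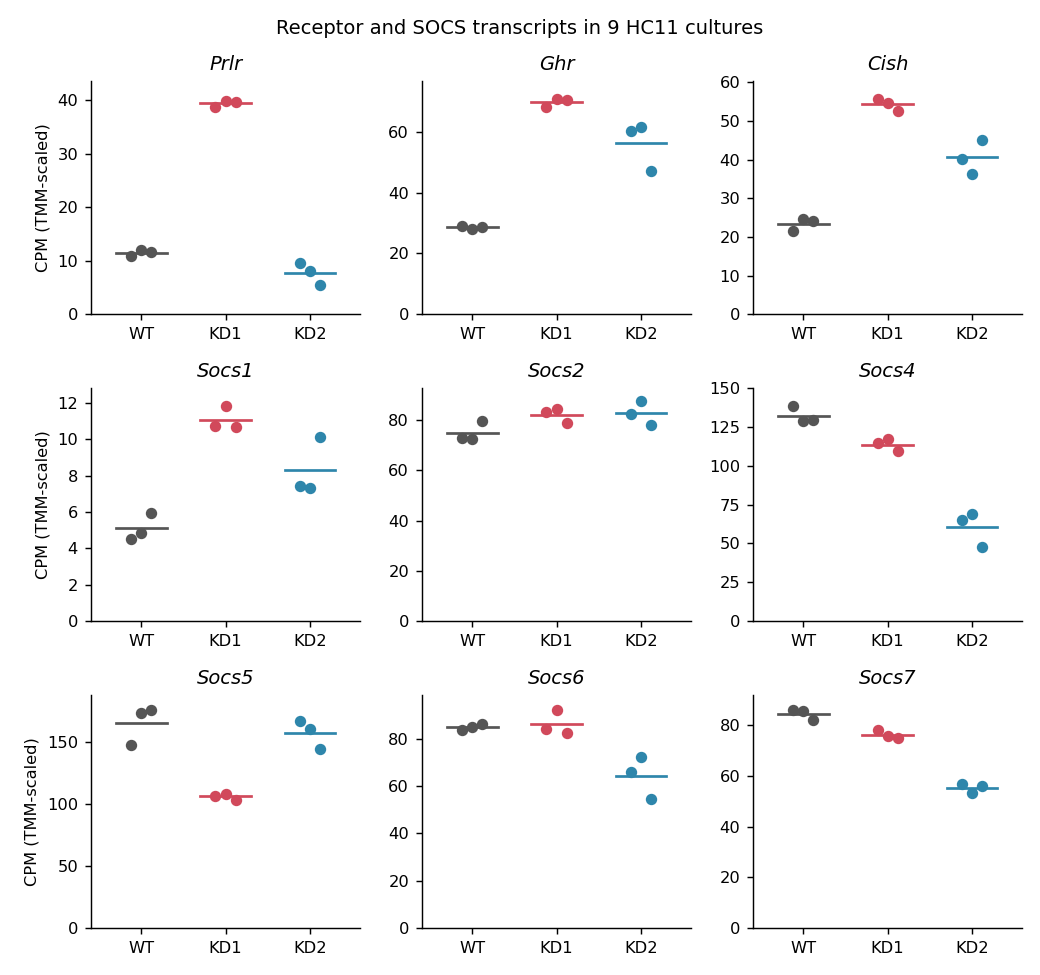
Level of each of the 9 transcripts, in TMM-scaled CPM on axes that start at 0, with 1 point per culture and a line at the mean of 3 cultures for *WT* (grey), *KD1* (red) and *KD2* (blue). *Prlr* is high in *KD1* alone, *Ghr*, *Cish* and *Socs1* are higher in both edited lines than in *WT*, *Socs5* is low in *KD1* alone, and *Socs4*, *Socs6* and *Socs7* are lowest in *KD2*.

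*Prlr* encodes the prolactin receptor, which is needed for alveolar development and lactation. Its gene spans chr15:10177238-10349180 on the plus strand of GRCm38. The *WT* cultures had 213, 302 and 238 counts, or 10.9, 12.1 and 11.6 CPM. *KD1* had 1050, 1012 and 984 counts, or 38.8, 39.8 and 39.7 CPM. In *KD2* there were 238, 244 and 113 counts, or 9.62, 8.12 and 5.56 CPM. The 3 lines did not overlap, with all *KD1* cultures above and all *KD2* cultures below *WT*. *Prlr* rose 3.41-fold in *KD1* (log2 fold change 1.77, SE 0.123, adjusted p = 2.6e-08 by edgeR), the largest rise among the 9 genes. It was 1.47-fold lower in *KD2* (-0.56, SE 0.139, adjusted p = 0.0028). Replicate 3 weighed on the *KD2* value, which was -0.36 (adjusted p = 0.0014) without that culture. Between the edited lines, *Prlr* differed 5.02-fold (*KD2* against *KD1*, -2.33, SE 0.127, adjusted p = 1.3e-09). Counts are per gene, so that the long and short receptor isoforms were not told apart.

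The transcript start regions were searched for TTCNNNGAA, the palindromic site that STAT5 recognizes, because *Cish* and some SOCS genes are among its targets. The window ran from 250 bases before to 50 bases after each start in RefSeq (GRCm38.p6), and 5 of the 9 genes had an entry. Of all 32851 such windows, 8.30% held at least 1 match and 0.457% held 2 or more. *Prlr* has 3 listed starts, and a match was found at 1 of them, TTCTAGGAA at base -110 counted from the start. The 250 bases upstream of that start, chr15:10223656-10223905 on the plus strand, are shown because they hold this match (capitals). They overlap no annotated exon and lie within an intron of the longer transcripts.
*Prlr*: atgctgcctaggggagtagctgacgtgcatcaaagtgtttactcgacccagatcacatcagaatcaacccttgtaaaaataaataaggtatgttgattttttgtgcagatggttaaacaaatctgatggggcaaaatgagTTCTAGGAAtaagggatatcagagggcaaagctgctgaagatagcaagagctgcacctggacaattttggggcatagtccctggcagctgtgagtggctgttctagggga
The other *Prlr* windows, both *Ghr* windows and those of *Socs1* and *Socs4* held no match. The files do not say which start the *Prlr* reads came from.

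*Ghr* encodes the growth hormone receptor and lies on the same chromosome, at chr15:3317760-3583492 on the minus strand. It was measured at 28.9, 27.96 and 28.8 CPM in *WT*, at 68.3, 70.9 and 70.4 CPM in *KD1* and at 60.3, 61.7 and 46.9 CPM in *KD2*. Both edited lines lay above *WT* in every culture, with *KD2* replicate 3 lowest among the edited cultures. *Ghr* rose 2.45-fold in *KD1* (log2 fold change 1.29, SE 0.0892, adjusted p = 2.4e-08 by edgeR) and 1.98-fold in *KD2* (0.98, SE 0.0896, adjusted p = 3.6e-07). Without replicate 3 the *KD2* log2 fold change was 1.12. *KD2* was 1.24-fold below *KD1* (-0.31, SE 0.0848, adjusted p = 0.0054), a difference that did not pass with scaling by library size alone (-0.18, adjusted p = 0.071).

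The balance of the receptor transcripts thus differed among the lines. The ratio of *Prlr* to *Ghr* counts stood at 0.377, 0.432 and 0.404 for *WT*, at 0.568, 0.562 and 0.564 for *KD1*, and at 0.160, 0.132 and 0.118 for *KD2*. The 3 groups did not overlap, and this ratio needs no scaling between libraries because both counts come from the same culture. Over the 25 tested genes within 2 Mb of *Prlr*, 2 passed higher and 13 lower in *KD1* (median log2 fold change -0.36), where 26.9% of all genes tested passed higher and 30.0% lower, and 7 passed higher and 11 lower in *KD2* (median -0.11), against 34.0% and 33.3% of all genes. Near *Ghr*, 2 of 13 passed higher and 6 lower in *KD1* (median -0.30), and 5 passed higher and 3 lower in *KD2* (median -0.04).

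*Cish* encodes CISH, a STAT5-induced inhibitor that binds phosphorylated cytokine receptors. It lies at chr9:107296026-107302784 on the plus strand. Its levels were 21.4, 24.7 and 24.0 CPM in *WT*, 55.7, 54.6 and 52.4 CPM in *KD1* and 40.3, 36.3 and 45.1 CPM in *KD2*. The cultures of the 3 lines did not overlap, in the order *WT*, *KD2*, *KD1*. *Cish* rose 2.32-fold in *KD1* (log2 fold change 1.21, SE 0.0833, adjusted p = 2.3e-08 by edgeR) and 1.73-fold in *KD2* (0.79, SE 0.0843, adjusted p = 1.8e-06). The line difference was 1.34-fold (*KD2* against *KD1*, -0.42, SE 0.0795, adjusted p = 0.0003). Exons of the antisense genes *Gm17040* and *Gm17041* overlap 4.07% and 7.46% of the *Cish* exon bases. These genes had at most 6 and 0 counts in any culture. How reads in the overlap were counted is not known, because the strand setting is not given. In *KD2* the 97 tested genes within 2 Mb of *Cish* had a median log2 fold change of 0.28, with 50 passing higher and 8 lower (all genes 34.0% and 33.3%), and in *KD1* the median was 0.05.

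The *Cish* start region held 2 STAT5-site matches, TTCCTGGAA from base 1 and TTCTTGGAA from base 12 of the RefSeq transcript. *Socs3*, the relative outside the set, held 1, TTCTTAGAA at base -154. The bases around them are shown to place these matches side by side, with the matches in capitals. The *Cish* stretch is chr9:107296654-107296683 on the plus strand and lies in an exon of the longer GENCODE transcripts, and the *Socs3* stretch is chr11:117969502-117969531 on the minus strand, outside annotated exons.
*Cish*: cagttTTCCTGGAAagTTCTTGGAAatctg
*Socs3*: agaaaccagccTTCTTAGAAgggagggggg
A match is a run of letters and does not show that STAT5 was bound in these cells. No window was listed for *Socs2*, *Socs5*, *Socs6* or *Socs7*.

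*Socs1* encodes an inhibitor that binds JAK kinases directly, and lies at chr16:10782240-10785536 on the minus strand. It was the shallowest of the inhibitors, with 88, 121 and 122 counts in *WT*, 290, 301 and 264 in *KD1* and 183, 220 and 206 in *KD2*. These correspond to 4.51, 4.84 and 5.96 CPM, to 10.7, 11.8 and 10.7 CPM, and to 7.40, 7.32 and 10.1 CPM. Every edited culture lay above every *WT* culture, and *KD2* replicate 3, low for the receptors, was the highest of its line. *Socs1* rose 2.17-fold in *KD1* (log2 fold change 1.12, SE 0.142, adjusted p = 1.3e-05 by edgeR) and 1.61-fold in *KD2* (0.69, SE 0.147, adjusted p = 0.00089), the latter 0.56 on the log2 scale without replicate 3. The difference between the edited lines was -0.43 (SE 0.132, adjusted p = 0.011) and did not pass without *KD2* replicate 2 (-0.34, adjusted p = 0.052) or with library size alone (-0.30, adjusted p = 0.056).

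*Socs2*, at chr10:95385362-95417180 on the minus strand, encodes the inhibitor best known for limiting growth hormone signaling. Its level was 72.9, 72.6 and 79.6 CPM in *WT*, 83.3, 84.5 and 78.7 CPM in *KD1* and 82.3, 87.7 and 78.3 CPM in *KD2*. The cultures of the lines overlapped. It passed the test in none of the comparisons, with log2 fold changes of 0.13 in *KD1* (unadjusted 95% interval -0.01 to 0.27, adjusted p = 0.099 by edgeR) and 0.14 in *KD2* (0.00 to 0.28, adjusted p = 0.065). The upper bounds lie under the fitted rises of *Cish* and *Socs1*. These p-values sat near the threshold, and *Socs2* passed in *KD1* in 4 and in *KD2* in 6 of 16 alternative analyses, including the one without *KD2* replicate 3 (0.15, adjusted p = 0.012 and 0.21, adjusted p = 0.0024).

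*Socs3* gave the pattern of *Cish* and *Socs1* at a higher level. SOCS3 inhibits signaling through gp130 and related receptors and is induced by STAT3. It was measured at 53.8, 70.8 and 64.7 CPM in *WT*, 175.6, 186.3 and 174.8 CPM in *KD1* and 141.3, 124.2 and 136.6 CPM in *KD2*, with no overlap. It rose 2.83-fold in *KD1* (log2 fold change 1.50, SE 0.0881, adjusted p = 4.1e-09 by edgeR) and 2.12-fold in *KD2* (1.08, SE 0.0879, adjusted p = 1.1e-07). Leaving out *WT* replicate 1 gave log2 rises of 1.40 for *KD1* and 0.98 for *KD2*. Of the 4 inducible inhibitors, counting *Socs3*, 3 passed higher in both lines and *Socs2* did not pass. Over all genes tested, 26.9% passed higher in *KD1* and 34.0% in *KD2*, and the share that did so in both was not counted. Both comparisons use the same *WT* cultures.

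**Figure D2:**
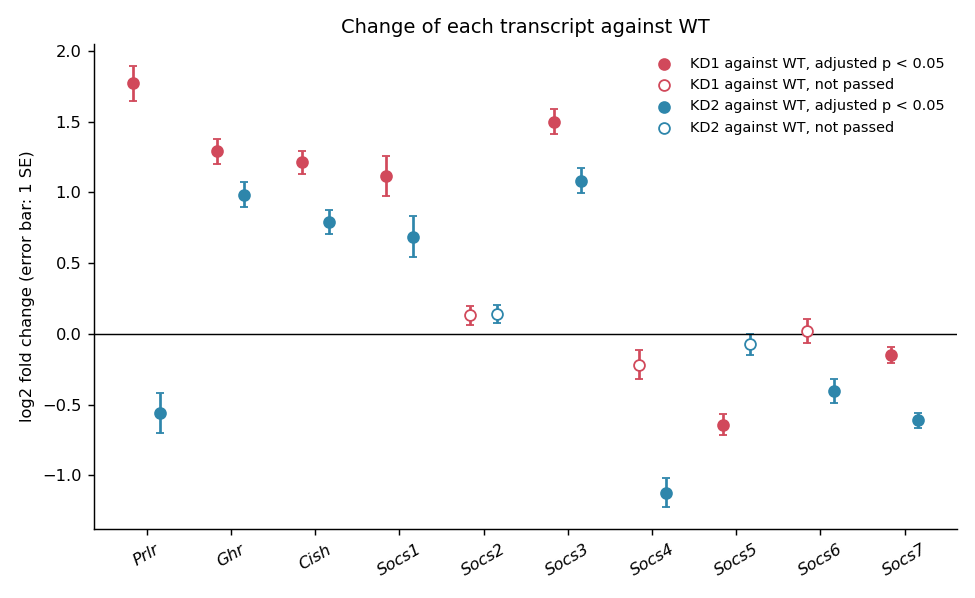
Log2 fold change against *WT* of the 9 transcripts and of *Socs3* in *KD1* (red) and *KD2* (blue), with error bars of 1 SE from the fit. Filled points passed at an adjusted p under 0.05. *Prlr* lies at 1.77 in *KD1* and at -0.56 in *KD2*, while *Ghr*, *Cish*, *Socs1* and *Socs3* lie above 0 in both.

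*Socs4* encodes an inhibitor that has been linked to EGF receptor turnover, and lies at chr14:47276931-47296102 on the plus strand. It was measured at 138.4, 128.6 and 129.4 CPM in *WT*, 114.4, 117.1 and 109.2 CPM in *KD1* and 65.0, 68.9 and 47.8 CPM in *KD2*. The *KD2* cultures lay far under the others, and the *KD1* cultures lay just under *WT*. It fell 2.17-fold in *KD2* (log2 fold change -1.12, SE 0.103, adjusted p = 4e-07 by edgeR), the largest fall among the 9 genes, or -0.95 without replicate 3. In *KD1* the value was -0.22 (SE 0.101, adjusted p = 0.08), which passed in 4 of the 16 alternatives. *KD2* was 1.87-fold below *KD1* (-0.90, SE 0.103, adjusted p = 2.8e-06). Its neighbours were lower as well. Of the 29 tested genes within 2 Mb of *Socs4*, 3 passed higher and 21 lower in *KD2* (all genes 34.0% and 33.3%), with a median log2 fold change of -0.62, and the median of the 493 tested genes of its chromosome was -0.47. In *KD1* these medians were 0.05 and -0.05. The part of the region in the fall of *Socs4* was not tested.

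*Socs5*, at chr17:87107679-87137839 on the plus strand, encodes an inhibitor linked to IL-4 and EGF receptor signaling. It was measured at 147.9, 173.0 and 175.6 CPM in *WT*, 106.7, 108.3 and 103.5 CPM in *KD1* and 166.5, 160.6 and 144.5 CPM in *KD2*. Only *KD1* was separate from *WT*. The overlap of *KD2* with *WT* rested on *WT* replicate 1, since *WT* replicates 2 and 3 lay above every *KD2* culture. *Socs5* fell 1.56-fold in *KD1* (log2 fold change -0.64, SE 0.0745, adjusted p = 5.3e-06 by edgeR), while in *KD2* the value was -0.07 (95% interval -0.23 to 0.09, adjusted p = 0.39). That *KD2* value became -0.15 (adjusted p = 0.069 by edgeR) with *WT* replicate 1 left out. Over the 16 alternatives it ran from -0.15 to 0.04. *KD2* was 1.48-fold above *KD1* (0.57, SE 0.0744, adjusted p = 1.1e-05). Of the 9 genes, it was the 1 that passed higher in *KD2* than in *KD1*. Within 2 Mb of it, 6 of 18 genes passed higher and 5 lower in *KD1* (median 0.02), against 26.9% and 30.0% of all genes.

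*Socs6* and *Socs7* encode inhibitors that bind insulin pathway proteins, and *Socs6* also the KIT receptor. *Socs6* lies at chr18:88665224-88927481 on the minus strand. It was measured at 83.7, 84.8 and 86.0 CPM in *WT*, 83.8, 92.0 and 82.4 CPM in *KD1* and 65.7, 72.0 and 54.3 CPM in *KD2*. *WT* and *KD1* overlapped, and all *KD2* cultures lay below both. *Socs6* fell 1.32-fold in *KD2* (log2 fold change -0.40, SE 0.0869, adjusted p = 0.00098 by edgeR), or by -0.27 without replicate 3. In *KD1* the change was 0.02 (95% interval -0.16 to 0.21, adjusted p = 0.86). *KD2* was also below *KD1* (-0.42, SE 0.0865, adjusted p = 0.0006). With 3 tested genes within 2 Mb, its region gives little to compare, and the median of the 367 tested genes of its chromosome was 0.23 in *KD2*.

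*Socs7* lies at chr11:97362551-97398542 on the plus strand. Its levels were 86.2, 85.8 and 82.0 CPM in *WT*, 78.3, 76.0 and 74.9 CPM in *KD1* and 56.9, 53.4 and 56.1 CPM in *KD2*. The lines did not overlap, in the order *WT*, *KD1*, *KD2*, and *KD2* replicate 3 was not apart here. *Socs7* fell 1.53-fold in *KD2* (log2 fold change -0.61, SE 0.0562, adjusted p = 3.9e-07 by edgeR). The fall in *KD1* was small (-0.15, SE 0.0554, adjusted p = 0.035) and did not pass in 12 of 16 alternatives. Over the 16 it ranged from -0.16 to -0.11. *KD2* lay 1.38-fold below *KD1* (-0.46, SE 0.056, adjusted p = 5.1e-06). Its 97 tested neighbours within 2 Mb had a median log2 fold change of 0.13 in both lines.

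The contrast of *KD2* with *KD1* also tests whether the changes against *WT* differed between the lines, and they did for 8 of the 9 genes. Among them, *Ghr* and *Socs1* did not pass in every alternative, as given above. In this contrast 1 gene passed higher (*Socs5*), against 34.8% of all genes tested, and 7 passed lower, against 33.0%. The 7 were *Prlr*, *Ghr*, *Cish*, *Socs1*, *Socs4*, *Socs6* and *Socs7*. None was more than 2-fold higher (0, against 14.7% of all genes), and *Prlr* was the 1 gene more than 2-fold lower, against 8.58%. The median over the 9 genes was -0.42, beside 0.02 for all genes. *Socs2* had a difference of 0.01 (95% interval -0.13 to 0.15, adjusted p = 0.88 by edgeR). *Socs3* was lower in *KD2* than in *KD1* too (-0.42, SE 0.085, adjusted p = 0.0006).

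To compare levels between genes, CPM were divided by the length of the exons of each gene (FPKM, from the GENCODE annotation of GRCm38). In *WT* the order from the top was *Socs5* (25.8 FPKM, SD 2.39, n = 3), *Socs3* (21.8), *Socs4* (19.2), *Socs7* (11.7), *Socs2* (7.88), *Socs6* (7.48), *Cish* (3.64), *Ghr* (3.15), *Socs1* (1.75) and *Prlr* (0.752, SD 0.0384). The neighbours *Socs5* and *Socs3*, and *Socs3* and *Socs4*, overlapped between cultures, and all other neighbours were separate. *Prlr* was the lowest of these transcripts in each line, also at its height in *KD1* (2.57 FPKM, SD 0.0369) and at 0.506 FPKM (SD 0.134) in *KD2*. Its exon length of 15339 bases sums the exons of all annotated transcripts, which lowers the value of a gene with many alternative ends. In *KD1* the top was *Socs3* (61.9 FPKM), followed by *Socs5* and *Socs4* (16.5 each, overlapping). *Cish* rose to 8.45 and *Ghr* to 7.71 FPKM there, next to *Socs2* (8.62) and *Socs6* (7.59). *Cish* overlapped *Socs2*, and *Ghr* overlapped *Socs6*. In *KD2* the order began with *Socs3* (46.4 FPKM) and *Socs5* (24.5), and *Socs4* (8.81, SD 1.63) came down to the level of *Socs2* (8.68), which it overlapped. Further down, *Cish* (6.32 FPKM), *Ghr* (6.22) and *Socs6* (5.64) overlapped in turn.

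**Figure D3:**
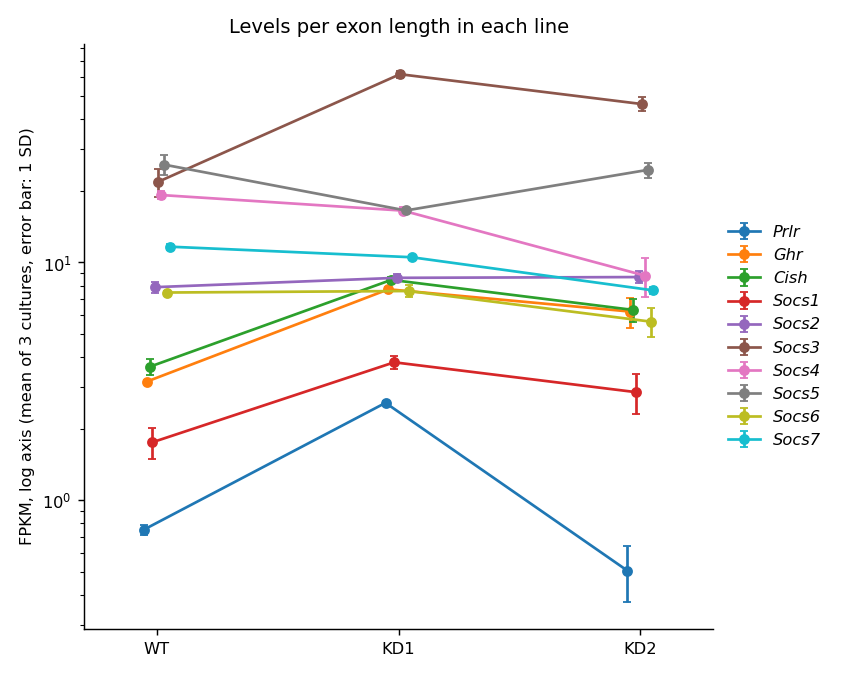
Level per exon length of the 9 transcripts and of *Socs3* in each line, as mean FPKM of 3 cultures on a log axis, with error bars of 1 SD. Lines join the values of 1 gene and are no time course. *Prlr* is lowest in all 3 lines, and *Socs3* is above all others in *KD1* and *KD2*.

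The make-up of the SOCS family differed between the lines. The summed FPKM of its 8 genes was 99.3 (SD 4.96) in *WT*, 133.9 (SD 4.13) in *KD1* and 110.8 (SD 3.97) in *KD2*. The inducible genes *Cish*, *Socs1*, *Socs2* and *Socs3* made up 35.3% (SD 1.79) of it in *WT*, 61.8% (SD 0.341) in *KD1* and 58.0% (SD 2.93) in *KD2*. Most of the gain was *Socs3*, which went from 21.9% in *WT* to 46.2% in *KD1* and 41.8% in *KD2*. *Cish* rose from 3.67% (SD 0.0928) of the family to 6.31% (SD 0.186) and 5.71% (SD 0.699). *Socs1* was 1.77%, 2.84% and 2.58% of it. *Socs4* went from 19.4% to 12.3% in *KD1* and 7.94% in *KD2*, and *Socs5* from 26.0% to 12.4% and 22.1%. These shares come from the same counts as the changes above and are no separate evidence of them. They also depend on the exon lengths used, which sum all annotated transcripts and ran from 2891 bases for *Socs3* to 11349 for *Socs6*.

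**Figure D4:**
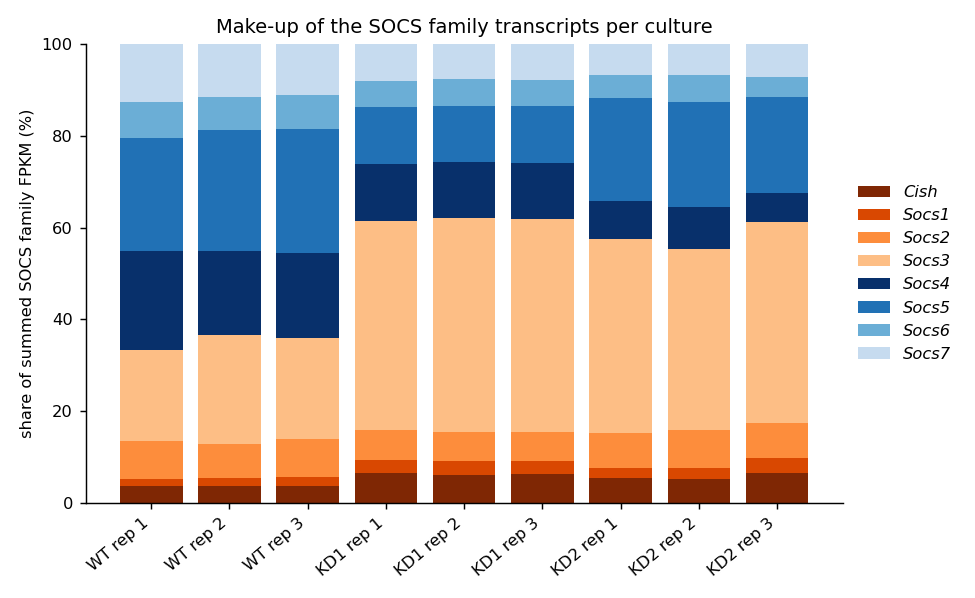
Share of each of the 8 SOCS family transcripts in their summed FPKM (%), with 1 stacked bar per culture. Inducible genes are in orange and brown at the bottom and *Socs4* to *Socs7* in blue above. The orange and brown part averages 35.3% in *WT*, 61.8% in *KD1* and 58.0% in *KD2*.

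Over the 9 cultures, the log2 CPM of some of the genes ran closely together. Pearson's r was 0.97 between *Cish* and *Socs1*, 0.99 between *Cish* and *Socs3*, and 0.93 between *Cish* and *Ghr*. *Socs4* ran with *Socs7* (0.95) and *Socs6* (0.95). *Prlr* had lower values with both groups, 0.51 with *Ghr* and 0.55 with *Cish*, and 0.57 with *Socs4* and 0.69 with *Socs6*, and was most negative with *Socs5* (-0.85). The 9 points are 3 lines of 3 cultures that share scaling and line, so r largely describes the order of the line means and is given without a test. Among 11320 other genes, the pattern of *Prlr* was most like that of *Ell2* (0.997), an elongation factor of RNA polymerase II, and *Elovl7* (0.996), a fatty acid elongase. For *Ghr* these were *Cyp2j6* and *Gm13230* (0.996 and 0.994), for *Cish* *Chst2* and *Xpnpep1* (0.998 and 0.997), and for *Socs1* *Phf23* and *Tmsb10* (0.990 and 0.989). *Socs5* was closest to *Scd1* and *Acsl3* (0.992 and 0.991), enzymes of fatty acid desaturation and activation. *Socs4* was closest to *Pola1* and *Wapl* (both 0.998) and *Socs7* to *Tdg* and *Tmem154* (0.996 and 0.995). *Socs2*, which differed least between lines, had the lowest values, 0.934 with *4930579G24Rik* and 0.926 with *Zfp51*.

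Upstream of the receptors, the hormone genes themselves were at or near 0 counts. *Prl* had 0 to 4 counts and *Gh* 0 to 1 count per culture, and neither was tested. The 9 JAK and STAT genes listed go beyond the JAK2 and STAT5 that act directly downstream of both receptors. Of them, 6 passed higher and 0 lower in *KD1* (median log2 fold change 0.25), and 7 passed higher and 1 lower in *KD2* (median 0.74). Over all genes tested, 26.9% passed higher and 30.0% lower in *KD1*, and 34.0% and 33.3% in *KD2*. *Jak2*, the kinase that both receptors use, rose 0.94 on the log2 scale in *KD1* (SE 0.0793, adjusted p = 2e-07 by edgeR) and 0.45 in *KD2*. *Stat3* rose by 0.93 in *KD1* (SE 0.061). In *KD2* the largest rise was that of *Jak3* (1.18, SE 0.11), and *Stat6* fell by 0.17 (SE 0.0603). *Stat5a*, the main STAT5 gene of the mammary gland, did not pass in *KD1* (-0.09, adjusted p = 0.42) and rose in *KD2* (0.92). *Stat5b* passed in neither line against *WT* (0.15, adjusted p = 0.052, in *KD1* and -0.05, adjusted p = 0.45, in *KD2*, by edgeR). Both STAT5 genes were singled out for their role after their values were seen.

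The other genes listed as inhibitors of the pathway were those of phosphatases, PIAS proteins, SH2B3 and BTRC, which acts in receptor ubiquitination. Of 10 tested, 2 passed higher and 2 lower in *KD1* (median 0.00), and 3 higher and 3 lower in *KD2* (median -0.02). These counts are near or under the shares of all genes (26.9% and 30.0% in *KD1*, 34.0% and 33.3% in *KD2*). *Ptpn6*, the phosphatase SHP-1, rose in both (0.78, SE 0.12, and 1.32, SE 0.117), as did *Pias3* (0.49 and 0.72), an inhibitor of STAT3. *Sh2b3*, an adaptor that restrains JAK2, fell in both (-0.39 and -0.42). *Pias2* fell in *KD1* (-0.30) and *Ptpn11*, the phosphatase SHP-2, fell in *KD2* (-0.56). Whether each listed gene acts as an inhibitor in these cells was not tested.

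SOCS boxes work through a cullin ligase. Of 7 genes listed as subunits or partners of such ligases, 1 passed higher and 2 lower in *KD1* (median 0.03). In *KD2*, 2 passed higher and 2 lower (median -0.00). These counts are near or under the shares of all genes (26.9% and 30.0%, and 34.0% and 33.3%). *Cul5*, the cullin that SOCS proteins use most, fell in *KD1* (-0.49, SE 0.0951) and in *KD2* (-0.32, SE 0.0948), and *Cul2* fell by 0.24 and 0.25. The RING protein gene *Rnf7* rose (0.17 and 0.50), and *Eloc* rose in *KD2* (0.39). Of 14 tested genes of other SOCS-box proteins, 5 passed higher and 3 lower in *KD1* (median 0.05) and 6 higher and 2 lower in *KD2* (median 0.05), beside the same shares of all genes. The largest changes in *KD1* were *Wsb1* (0.49) and *Spsb1* (0.43) upward and *Spsb4* (-0.99) and *Vhl* (-0.49) downward. Those in *KD2* were *Spsb2* (1.13) and *Asb1* (1.04) upward and *Asb13* (-0.995) and *Wsb2* (-0.38) downward.

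Of the 14 tested adaptors that connect the receptors to other pathways, 4 passed higher and 6 lower in *KD1* (median -0.03) and 5 higher and 3 lower in *KD2* (median -0.03), where all genes gave 26.9% and 30.0% in *KD1* and 34.0% and 33.3% in *KD2*. *Lyn*, a SRC-family kinase, rose 1.68 in *KD1* (SE 0.0816) and 0.68 in *KD2* (SE 0.086), and *Irs2* rose 0.45 and 0.64. *Irs1* (-0.96) and *Gab2* (-0.88) fell in *KD1*, and *Sh2b2* (-1.66) and *Sos2* (-0.68) fell in *KD2*. The class I receptors other than *Prlr* and *Ghr* were mixed, with 3 of 10 passing higher and 5 lower in *KD1* (median -0.10, and -0.37 to 0.00 over the alternatives) and 3 higher and 2 lower in *KD2* (median -0.08). *Il4ra* (1.22) and *Il13ra1* (0.48) rose in *KD1*, where *Lifr* (-3.09, SE 0.121) and *Osmr* (-1.22) fell. In *KD2*, *Lepr* (0 to 3 counts in *WT* and 8 to 23 in *KD2*) and *Il11ra1* (1.71) rose, and *Il13ra1* (-0.59) and *Il6ra* (-0.39) fell.

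Of 18 genes known to respond to STAT5, most of them induced by it and *Bcl6* repressed, 8 had enough counts to be tested in these undifferentiated cells. The milk protein genes *Csn1s1*, *Csn2*, *Csn3*, *Wap* and *Lalba* had 0 to 2 counts in every culture. Of the 8, 3 passed higher and 1 lower in each line, where all genes gave 26.9% and 30.0% in *KD1* and 34.0% and 33.3% in *KD2*. The median was 0.58 in *KD1* but ran from 0.06 to 1.09 over the alternatives, since it falls in a gap between genes near 0 and genes near 1, and in *KD2* it was 0.03 (-0.05 to 0.15). *Cdkn1a* (1.24, SE 0.0624) and *Ccnd1* (1.11, SE 0.0496), a cell cycle inhibitor and a G1 cyclin, rose in *KD1*. *Elf5*, the alveolar transcription factor, rose in *KD2* (2.87, SE 0.389), from 4 to 7 counts in *WT* to 35 to 59, and *Ccnd1* fell there (-0.18, SE 0.0492). *Id2* fell in *KD1* (-0.21) and rose in *KD2* (0.39).

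**Figure D5:**
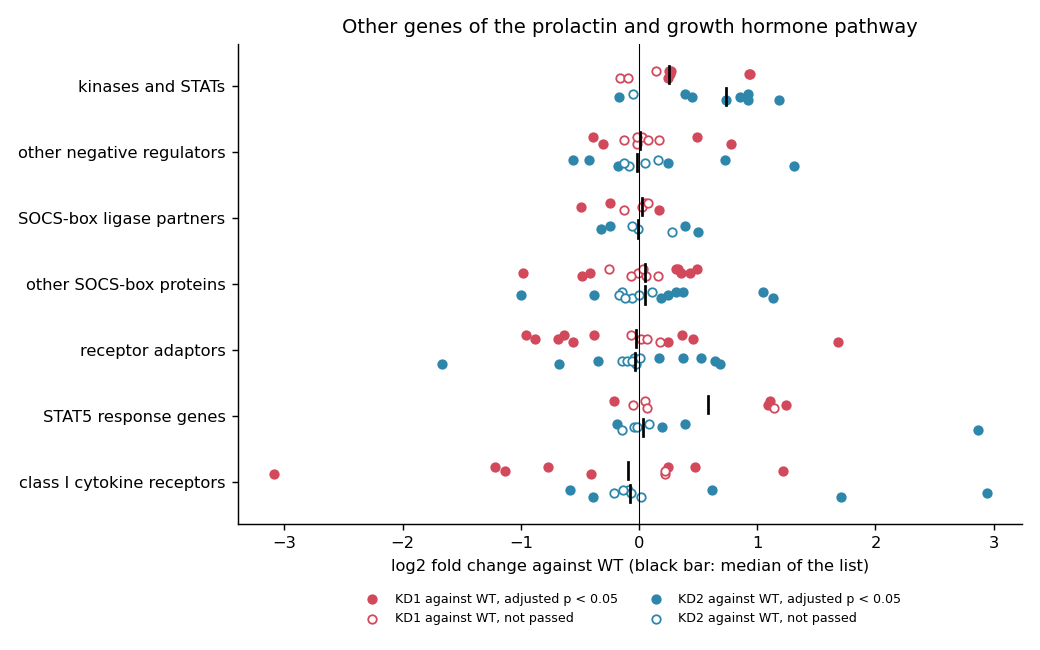
Log2 fold change against *WT* of each tested gene of 7 lists of the pathway, in *KD1* (red) and *KD2* (blue), with filled points for genes that passed at an adjusted p under 0.05 and a black bar at the median of each list. The medians of the kinases and STATs are 0.25 in *KD1* and 0.74 in *KD2*. The median of the STAT5 response genes in *KD1*, 0.58, falls in a gap between points.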

How the data were processed

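Polyadenylated RNA of 9 HC11 cultures was sequenced. The file the authors deposited holds raw read counts for 55228 genes, made with fastp, HISAT2 on GRCm38 and featureCounts over exons. Whether counting used strand is not given in the sources used here. Columns were assigned to cultures from the labels, and 0 were left unassigned. Counts were tested here with edgeR 4.0.16 (R 4.3.3) using quasi-likelihood F statistics from 1 fit of the 3 lines, TMM factors and the default expression filter. Adjustment was by Benjamini-Hochberg, across 15253 tested genes. The SE was computed from the fold change and F. FPKM used exon lengths of GENCODE M21, which holds 53569 of the gene names and is not the release the study used. The genes described and the lists were chosen with earlier results of these data known. From each list, up to 2 passing genes with the largest rise and 2 with the largest fall were named per line; for each of the 9 genes, the 2 others (mean log2 CPM above 1) with the highest Pearson correlation were named; some genes these rules select are not reported here. Alternatives were DESeq2 1.42.0, median-of-ratios scaling, library size alone, no filter, at least 10 counts in every culture, a replicate block, only the 6 cultures compared, and each culture left out. The tests were checked on simulated data.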

Additional observations from a re-analysis of the deposited data

Results flagged for a closer look

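For 8 of the 9 genes the change against *WT* differed between the edited lines by the direct test of *KD2* against *KD1* (edgeR, adjusted over all genes). Of all genes tested, 34.8% passed higher and 33.0% lower in this contrast. The log2 differences were -2.33 for *Prlr*, -0.31 for *Ghr*, -0.42 for *Cish*, -0.43 for *Socs1*, -0.90 for *Socs4*, 0.57 for *Socs5*, -0.42 for *Socs6* and -0.46 for *Socs7*. *Prlr* is the 1 gene of these that passed in opposite directions against *WT*. With library size alone, *Ghr* (adjusted p = 0.071 by edgeR) and *Socs1* (adjusted p = 0.056) did not pass, which left 5 genes passing lower. *Socs1* also did not pass without *KD2* replicate 2 (adjusted p = 0.052 by edgeR).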

How the results depend on the processing

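Of 16 alternatives, none turned a change that had passed. The count of the 9 genes lower in *KD1* was 1 in place of 2 with median-of-ratios factors, with DESeq2 and with at least 10 counts in every culture, and 1 to 3 with 1 culture left out. It was 1 without any of the *WT* or *KD1* cultures or *KD2* replicate 1, where *Socs7* did not pass, and 3 without *KD2* replicate 3, where *Socs4* passed. With only the 6 cultures compared it was 3 as well, with 5 higher, and with no filter it was 2, with *Socs4* (adjusted p = 0.018 by edgeR) in place of *Socs7* (adjusted p = 0.19). The log2 fold change of *Socs7* ranged from -0.16 to -0.12 with 1 culture left out. With at least 10 counts in every culture, which tests fewer genes, those more than 2-fold higher and lower numbered 766 and 553 in *KD1* (1425 and 1143 without that filter), 1173 and 525 in *KD2* (2211 and 1024), and 1181 and 733 for *KD2* against *KD1* (2247 and 1309). Values that had not passed changed sign for *Socs6* in *KD1* (-0.025 to 0.057 with 1 culture left out), *Socs5* in *KD2* (-0.15 to 0.0085, and 0.036 with library size alone), *Vangl2* in *KD2* (-0.038 to 0.13) and *Socs2* between the edited lines (-0.033 to 0.056, -0.0002 with median-of-ratios factors and -0.029 without a filter); the cause was not tested. Scaling by library size alone moved the median of all genes to 0.12 in *KD2* against *WT* and 0.14 against *KD1*, so that values of *KD2* are relative to that choice. Same-numbered cultures did not deviate together (r from -0.12 to 0.16), so the numbers were not treated as a pairing. With the replicate block, *Socs7* in *KD1* was -0.15 (adjusted p = 0.053 by edgeR) and *Socs4* -0.22 (adjusted p = 0.04), and no other call of the 9 genes changed. *Prlr* and *Socs1* rest on the fewest counts and have the largest errors of the 9 genes.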
